A study of Mus musculus with 6 samples.

Results

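The genes described here are 45 ligands, receptors, SMAD proteins, antagonists, latency proteins and a target of the TGF-beta superfamily. They were listed by name and role, with earlier results of these data known. Shares among them are therefore descriptions and not tests. All 45 of the 45 had a gene-level probe set among the 20239 named genes of the arrays. Transcripts were measured in sciatic nerves of mice aged 25 days, with 1 array per mouse. The 3 mutant mice had the genotype DhhCre::Sip1 flox/flox and the 3 control mice Sip1 flox/flox. Sip1 is an older symbol of Zeb2, which encodes a zinc finger transcription repressor. Both groups carried the floxed alleles, and they differed by DhhCre, a Cre recombinase driven by desert hedgehog sequences that is active in Schwann cells and their precursors. No group carried Cre alone, so an effect of Cre and an effect of the deletion cannot be told apart. Per the labels, samples within a group are biological replicates. Values per mouse are given in the order of the replicate numbers 1, 2 and 3. Whole nerve holds Schwann cells, perineurial cells, fibroblasts, vessels and macrophages, and in such bulk tissue fewer cells of a type and less RNA per cell cannot be told apart.

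Ligands of this superfamily are secreted dimers. TGF-betas are stored in the matrix as latent complexes, held by latent TGF-beta binding proteins, while BMPs and activins are restrained by soluble antagonists such as noggin and follistatin. A ligand joins type II receptors to type I receptors, whose kinase phosphorylates receptor SMADs. Receptor SMADs enter the nucleus with the common SMAD4, and inhibitory SMADs and SMURF ubiquitin ligases restrain the signal. The protein made by Zeb2 was named for its binding to receptor SMADs, and BMP and TGF-beta signals are known to influence how Schwann cells divide and mature. The comparison asks which parts of this pathway differed in transcript level between mutant and control nerves.

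The deleted gene itself was lower in the mutants. Zeb2 stood at 10.96, 10.66 and 11.01 across mutants, against 11.67, 11.57 and 12.02 across controls, all on the log2 scale. The groups did not overlap, and the difference was −0.88 (SE 0.15, limma adjusted p = 0.0137, 0.0522 without mutant 1). Which exons its probes read is not stated in the labels, so the value may include transcript outside the deleted part. Of 7 Schwann cell markers, 5 were measured, each at or above 8.60 in every sample. S100b and Erbb3 fell, and the other 3 did not pass. The log2 of the summed Schwann cell markers ran from 12.30 to 12.71 in the mutants and from 12.97 to 13.62 in the controls. Skeletal muscle transcripts were uneven, and the mean log2 value of 18 markers was 7.63, 12.47 and 9.97 across mutants, against 7.77, 12.59 and 10.42 across controls. Xist and Y-linked genes placed 2 males among the mutants and 1 among the controls.

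Among the 45 genes, 14 rose in the mutants, 2 fell and 29 did not pass the test (limma, Benjamini-Hochberg adjusted p under 0.05 over all 20239 genes). That is 31.1% higher and 4.44% lower, beside 5.74% higher and 3.89% lower among all genes tested. The share lower is near that of all genes. The 3 mutant and 3 control values did not overlap for 27 of the 45 genes (60.0%), as for 28.1% of all genes. The median difference, mutant minus control, was 0.17 on the log2 scale, against −0.02 over all genes. Most of the genes that rose were listed as ligands, latent TGF-beta binding proteins or type I receptors. None of the 8 SMADs passed, a count near the shares of all genes. The 14 were Tgfb2, Bmp3, Bmp6, Inhba, Tgfbr1, Bmpr1a, Bmpr1b, Acvr1, Bambi, Ltbp1, Ltbp2, Ltbp3, Ltbp4 and Tgfbi, and the 2 that fell were Acvr2a and Fst. The number higher was 8 without mutant 1, 7 without mutant 3, 9 without control 2, 9 with sex as a covariate and 7 without both muscle-rich samples, mutant 2 and control 2. The number lower was 1 without mutant 1, mutant 2, mutant 3 or control 2, and 0 without both muscle-rich samples. Calls over all genes dropped in the same fits, from 1161 higher to 504 without mutant 1, 502 without mutant 3, 742 without control 2, 902 with sex and 871 without both muscle-rich samples. Lower calls over all genes went from 787 to 392, 624, 408, 572 and 453 without mutant 1, mutant 2, mutant 3, control 2 and both muscle-rich samples.

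**Figure D1:**
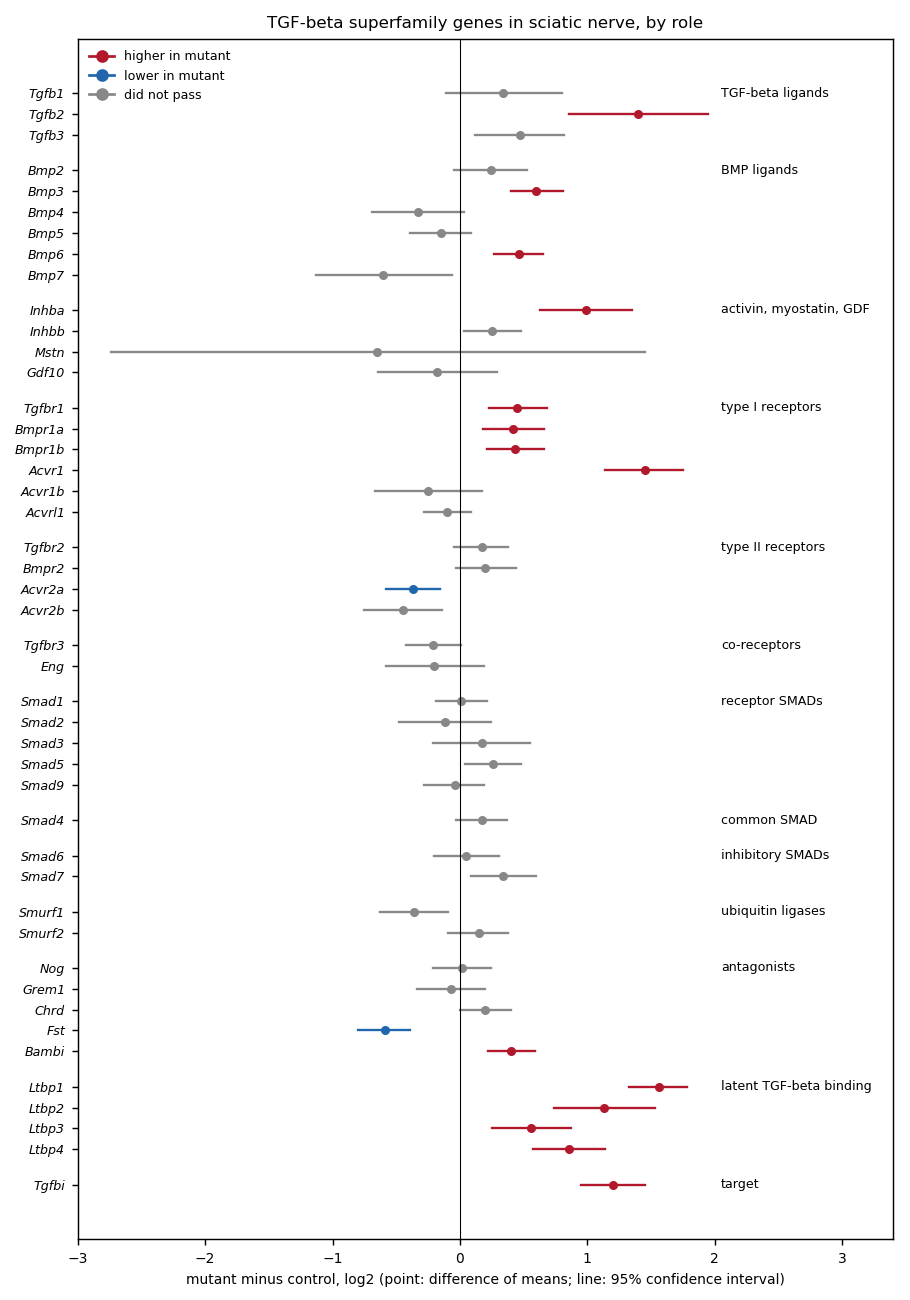
Difference between mutant and control means on the log2 scale (horizontal axis) for each of the 45 genes, grouped by role, with 95% confidence intervals from limma and n = 3 mice per group. All 4 latent TGF-beta binding proteins lie to the right of 0, from 0.56 to 1.56, while the 8 SMADs lie between −0.12 and 0.34.

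Of the 3 TGF-beta isoforms, Tgfb2 rose and the other two did not pass. Tgfb2 stood at 9.95, 9.50 and 9.97 across mutants, against 8.31, 8.87 and 8.04 across controls. Every mutant lay above every control, and control 2 was the highest control. The mean was 9.81 ± 0.26 against 8.41 ± 0.42 (SD, n = 3 each), a 2.64-fold difference (log2 1.40, SE 0.23, limma adjusted p = 0.0115). The call was lost without mutant 1 (adjusted p = 0.0567) or mutant 3 (0.0581). Tgfb3 stood at 10.63, 10.32 and 10.85 across mutants, against 10.01, 10.14 and 10.24 across controls, also without overlap. Its difference was 0.47 (95% confidence interval 0.12 to 0.82, limma adjusted p = 0.105), and it passed without mutant 2 (0.0321) and with array weights (0.0255). Both fits also called more of all genes higher, 1397 and 2411, against 1161 in the fit of the text. Tgfb1, the isoform that immune cells and many other cells make, overlapped between the groups, with a difference of 0.34 (95% confidence interval −0.11 to 0.80, adjusted p = 0.365). Within each array the log2 ratio of Tgfb2 to Tgfb1 was 0.21 ± 0.17 in the mutants and −0.85 ± 0.45 in the controls. That of Tgfb2 to Tgfb3 was −0.79 ± 0.10 and −1.72 ± 0.46, and that of Tgfb3 to Tgfb1 1.00 ± 0.24 and 0.88 ± 0.48. An exact permutation test, two-sided, gave p = 0.1 for each of the ratios with Tgfb2, which is the smallest that 3 against 3 allows, and p = 0.9 for the ratio of Tgfb3 to Tgfb1. Adjusted over the 5 ratios computed, these values were 0.125, 0.125 and 0.9. The ratios were chosen after the values were seen, and Tgfb2 alone had already separated the groups. No conclusion is drawn from these p-values.

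All 4 latent TGF-beta binding proteins, matrix proteins of fibrillin fibres of which most also hold latent TGF-beta, rose. Ltbp1 stood at 11.23, 10.96 and 11.08 across mutants, against 9.53, 9.57 and 9.51 across controls. The controls lay close together and far below the lowest mutant, and the difference was 2.94-fold (log2 1.56, SE 0.09, limma adjusted p = 0.00034), the smallest p of the 45 genes. Ltbp2, whose protein binds fibrillin but not latent TGF-beta, was 9.18, 9.31 and 8.73 across mutants, against 8.12, 7.85 and 7.85 across controls. Mutant 3 was the lowest mutant and still above the highest control (log2 difference 1.13, SE 0.17, adjusted p = 0.00769). Ltbp4, which also guides elastic fibre assembly, was 12.00, 11.62 and 11.83 against 10.97, 11.06 and 10.85, a difference of 0.86 (SE 0.12, adjusted p = 0.00649). Ltbp3 had the smallest difference, with 11.28, 10.90 and 11.09 against 10.71, 10.44 and 10.42 (log2 0.56, SE 0.13, adjusted p = 0.0415). The lowest mutant value of Ltbp3 lay above the highest control value. The call of Ltbp3 was lost on leaving out mutant 1 (adjusted p = 0.156), mutant 3 (0.149), control 2 (0.122) or control 3 (0.107), and with arrays centred on their medians (0.0651) or sex as a covariate (0.0759). Without both muscle-rich samples neither Ltbp2 (0.0566) nor Ltbp3 (0.0832) passed.

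Fibroblasts are known producers of these matrix proteins. Most markers of perineurial cells and some of fibroblasts were higher in the same mutants. Of 10 perineurial markers 8 rose and none fell, and the log2 of their sum was 14.66 to 14.83 in the mutants and 13.67 to 14.09 in the controls. Of 10 fibroblast markers 3 rose, none fell and 7 did not pass. The log2 of the fibroblast sum was 15.71 to 15.93 in the mutants, against 15.42 to 15.60 in the controls. Among all genes tested 5.74% were higher and 3.89% lower. The lowest single value was 8.22 among the perineurial and 8.48 among the fibroblast markers, so no marker was near the bottom of the arrays. The part of these cells in the rise of the binding proteins was not tested.

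**Figure D2:**
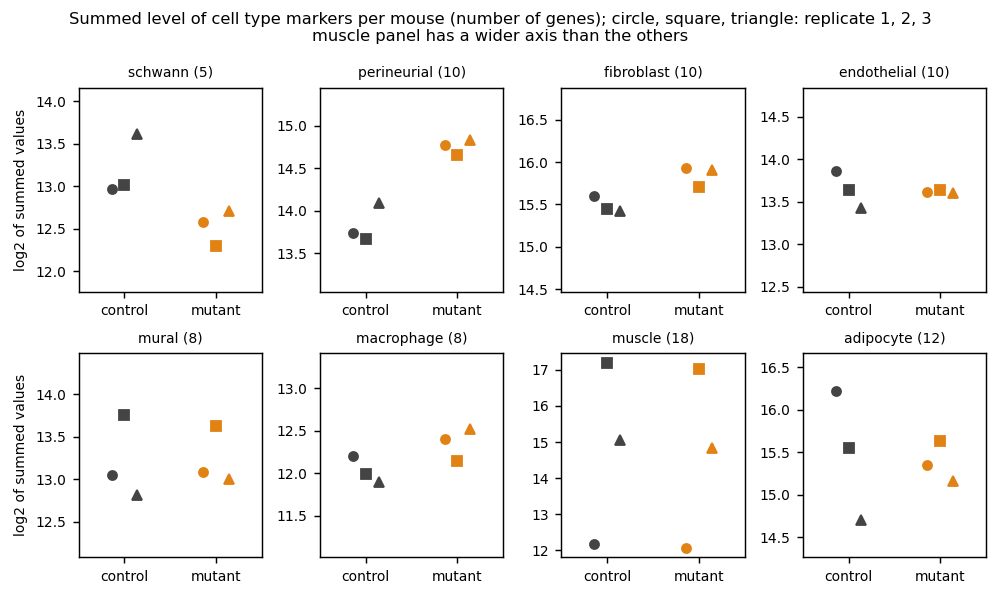
Log2 of the summed linear values (vertical axis) of each cell type's marker genes in each of the 6 mice, with the number of genes in brackets and 1 point per mouse. Perineurial markers of the 3 mutants lie between 14.66 and 14.83, above the controls, while muscle markers follow the replicate number in both groups.

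Sequences upstream of the start of these 4 genes and of Tgfb2 are shown because all 4 binding proteins and Tgfb2 rose. Each run is the 250 bases before the most upstream start, 5′ to 3′ on the strand of the gene, from RefSeq on assembly GRCm38.p6. The windows lie at chr17:75005279-75005528 (plus strand) for Ltbp1, chr12:84876492-84876741 (minus) for Ltbp2, chr19:5740650-5740899 (plus) for Ltbp3, chr7:27337613-27337862 (minus) for Ltbp4 and chr1:186705990-186706239 (minus) for Tgfb2. Capitals mark the E-box CACCTG, which ZEB proteins bind, with its other strand CAGGTG, and the SMAD box CAGAC, with its other strand GTCTG. No base belonged to both motifs.
Ltbp1: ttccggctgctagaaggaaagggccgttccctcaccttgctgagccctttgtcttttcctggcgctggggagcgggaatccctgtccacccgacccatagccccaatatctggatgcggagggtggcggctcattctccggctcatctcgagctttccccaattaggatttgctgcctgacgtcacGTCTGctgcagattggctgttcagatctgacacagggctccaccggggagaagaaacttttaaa
Ltbp2: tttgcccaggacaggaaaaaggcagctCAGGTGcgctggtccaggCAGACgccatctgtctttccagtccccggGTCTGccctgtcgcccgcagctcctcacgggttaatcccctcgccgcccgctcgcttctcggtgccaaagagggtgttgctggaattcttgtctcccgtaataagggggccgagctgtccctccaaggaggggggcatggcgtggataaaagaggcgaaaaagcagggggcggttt
Ltbp3: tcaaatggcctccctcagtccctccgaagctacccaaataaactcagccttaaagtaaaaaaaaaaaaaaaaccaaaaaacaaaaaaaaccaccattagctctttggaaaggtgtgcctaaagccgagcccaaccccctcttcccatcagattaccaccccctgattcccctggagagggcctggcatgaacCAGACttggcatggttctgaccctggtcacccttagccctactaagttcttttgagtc
Ltbp4: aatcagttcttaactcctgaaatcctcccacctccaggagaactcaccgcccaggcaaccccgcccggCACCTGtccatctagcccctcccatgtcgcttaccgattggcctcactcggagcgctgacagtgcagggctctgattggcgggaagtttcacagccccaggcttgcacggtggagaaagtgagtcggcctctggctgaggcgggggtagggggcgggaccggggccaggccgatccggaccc
Tgfb2: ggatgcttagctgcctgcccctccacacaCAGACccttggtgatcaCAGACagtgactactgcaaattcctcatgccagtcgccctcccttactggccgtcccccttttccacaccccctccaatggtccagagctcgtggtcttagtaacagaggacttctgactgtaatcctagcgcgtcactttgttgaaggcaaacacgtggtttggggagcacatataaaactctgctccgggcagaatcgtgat
The E-box stood in Ltbp2, from 223 bases before the start, and in Ltbp4, from 182 bases before it, and the other 3 windows held none. SMAD boxes stood in Ltbp1 (64 bases before the start), Ltbp2 (205 and 176), Ltbp3 (58) and Tgfb2 (221 and 204). Of the 45 genes 33 matched a window of the RefSeq table. The E-box stood in 6 of these 33 (18.2%) and in 17.1% of the windows of all 27025 genes. Besides Ltbp2 and Ltbp4 these were Bmp4, Bmp6, Bmpr1b and Smad9. The SMAD box stood in 17 of the 33 (51.5%), against 42.2% of all windows. Windows of all genes came from the RefSeq table and were not limited to genes on the arrays. A match describes letters in a window and not a bound site.

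Of the 6 BMP ligands, 2 rose, none fell and 4 did not pass. Bmp3, an atypical BMP that opposes the bone-forming ones, rose from 8.45, 8.27 and 8.31 across controls to 8.90, 9.01 and 8.93 across mutants. The spread within either group was small beside the gap (log2 difference 0.60, SE 0.09, limma adjusted p = 0.00703). Bmp6, a ligand known for its control of hepcidin in the liver, was 9.73, 9.88 and 9.86 across mutants, against 9.36, 9.38 and 9.35 across controls (log2 0.46, SE 0.08, adjusted p = 0.0142). Its 3 control values were almost equal, and all mutants lay above them. The call of Bmp6 was lost without mutant 3 (adjusted p = 0.0788), and without both muscle-rich samples neither Bmp6 (0.0847) nor Bmp3 (0.0575) passed. Bmp7 stood below the controls without passing. It was 10.36, 9.79 and 10.35 across mutants, against 10.56, 10.55 and 11.18 across controls, a difference of −0.60 (95% confidence interval −1.13 to −0.06, adjusted p = 0.176). With the adipocyte score as a covariate, Bmp7 passed as lower (adjusted p = 0.0252). The adipocyte score, the mean log2 value of 12 fat cell markers, spanned 2.18 between samples, and no fat cell marker passed. Bmp4, which has a role in fat and neural crest cells, had a difference of −0.33 (adjusted p = 0.267, and 0.0305 without control 3, the control closest to the mutants). Bmp2 (0.24) and Bmp5 (−0.15) overlapped between the groups.

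Among the activin and GDF ligands, Inhba rose. Inhba, whose product forms activin A, was 8.40, 8.02 and 8.47 across mutants, against 7.45, 7.10 and 7.38 across controls. The groups were 0.99 apart (SE 0.15, 1.98-fold, limma adjusted p = 0.00901). Sample 2 was the lowest of each group. Inhbb, the subunit of activin B, differed by 0.25 without overlap and did not pass (95% confidence interval 0.03 to 0.48, adjusted p = 0.173). Fst encodes follistatin, which binds activins nearly irreversibly, and it fell. Its values were 9.38, 9.23 and 9.32 across mutants, against 9.99, 9.87 and 9.84 across controls. These groups were tight and apart, with a difference of −0.59 (SE 0.09, 1.51-fold lower, adjusted p = 0.00729), which did not pass without both muscle-rich samples (0.0523). Within each array the log2 ratio of Inhba to Fst was −1.01 ± 0.18 in the mutants and −2.59 ± 0.16 in the controls, 1.58 apart. That of Inhbb to Fst was −1.43 ± 0.16 against −2.28 ± 0.03. Each gave p = 0.1 in a two-sided exact permutation test, the smallest that 3 against 3 allows (0.125 adjusted over the 5 ratios). That p was fixed beforehand, because every mutant lay above every control for Inhba and Inhbb and below for Fst. It adds nothing to the results of the single genes.

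Mstn, the myostatin of skeletal muscle, did not differ beyond its spread. It stood at 5.82, 7.36 and 6.08 across mutants, against 6.17, 9.17 and 5.87 across controls, so that sample 2 was the highest of each group. These are also the samples with the most muscle transcripts. The difference was −0.65 with a 95% confidence interval of −2.74 to 1.45 (limma adjusted p = 0.727), and it was 0.40 without control 2. Gdf10 overlapped between the groups at −0.18 (adjusted p = 0.664).

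Of the 6 type I receptors, the kinases that phosphorylate SMADs, 4 rose. Acvr1, a receptor for BMPs and activins, rose most, from 9.14, 8.97 and 8.99 across controls to 10.62, 10.22 and 10.60 across mutants. The lowest mutant was more than 1 log2 unit above the highest control, and the difference was 2.73-fold (log2 1.45, SE 0.13, limma adjusted p = 0.00123). Tgfbr1, the TGF-beta type I receptor, was 9.76, 9.71 and 9.95 across mutants, against 9.31, 9.32 and 9.43 across controls (log2 0.45, SE 0.10, adjusted p = 0.0294). Bmpr1a, a widely expressed BMP receptor, was 11.12, 11.13 and 11.15 against 10.54, 10.85 and 10.77 (log2 0.42, SE 0.10, adjusted p = 0.0454). Bmpr1b, its relative of cartilage and neural tissue, was 6.60, 6.43 and 6.61 against 6.02, 6.23 and 6.09 (log2 0.43, SE 0.10, adjusted p = 0.0355). In all of these the groups did not overlap, but the gaps of Tgfbr1, Bmpr1a and Bmpr1b were narrow. Bmpr1b lies low on these arrays, where a value may be background and a fold is compressed.

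Apart from that of Acvr1, the type I receptor calls were lost when single mice were left out. Bmpr1a did not pass without any 1 of the 6 samples (limma adjusted p from 0.0565 without control 2 to 0.168 without mutant 3). Of the 6 fits that each left out 1 sample, Bmpr1b passed in that without mutant 2, and in the others it lay from 0.0502 without control 2 to 0.158 without mutant 1. Tgfbr1 was lost without mutant 1 (0.103), mutant 3 (0.115), control 1 (0.0739) or control 2 (0.0925). Under the replicate block, which fits the replicate number of the labels, Bmpr1a (0.0639) and Bmpr1b (0.0727) did not pass. With arrays centred on their medians, Tgfbr1 (0.0575), Bmpr1a (0.0776) and Bmpr1b (0.0578) did not pass, and Bmpr1b did not with quantile normalization repeated (0.0732). With sex as a covariate these 3 stood at 0.0644, 0.108 and 0.0701, and with the muscle score at 0.0539, 0.0504 and 0.0617. The adipocyte score as a covariate also ended the calls of Bmpr1a (0.0593) and Bmpr1b (0.0511), a trended robust prior that of Bmpr1a (0.0501), and leaving out both muscle-rich samples those of Tgfbr1 (0.0952) and Bmpr1a (0.0942). The others of this class did not pass. Acvr1b, the activin type I receptor, differed by −0.25 (adjusted p = 0.482), and Acvrl1, the type I receptor of endothelium, by −0.10 (95% confidence interval −0.28 to 0.09, adjusted p = 0.536). Endothelial markers overlapped in sum, at 13.61 to 13.64 in the mutants and 13.43 to 13.86 in the controls, and 1 of 10 fell and none rose.

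Of the 4 type II receptors, which bind ligand and activate the type I kinases, 1 fell and none rose. Acvr2a, an activin receptor, fell from 9.50, 9.63 and 9.68 across controls to 9.32, 9.16 and 9.23 across mutants. The groups did not overlap, and the difference was −0.37 (SE 0.09, limma adjusted p = 0.0479). It is close to the threshold, and it was lost under the replicate block (0.0956), with sex (0.0892) or the muscle score (0.0838) as a covariate, and without mutant 1 (0.119), mutant 2 (0.103), mutant 3 (0.176), control 2 (0.134), control 3 (0.116) or both muscle-rich samples (0.19). Acvr2b, its close relative, was 7.69, 7.90 and 7.80 across mutants, against 8.00, 8.43 and 8.30 across controls (log2 −0.45, adjusted p = 0.0842). Acvr2b passed as lower under the replicate block (0.0455), with the muscle score as a covariate (0.0413), with array weights (0.0104) and without control 1 (0.0289). With array weights 1244 of all genes were lower, against 787 in the fit of the text. Tgfbr2 (0.17, 95% confidence interval −0.05 to 0.38) and Bmpr2 (0.20, −0.03 to 0.44) overlapped between the groups. Of the co-receptors, the betaglycan gene Tgfbr3 was 11.34, 11.20 and 11.34 against 11.50, 11.41 and 11.60 (log2 −0.21, adjusted p = 0.244). The endothelial co-receptor Eng differed by −0.20 (adjusted p = 0.550).

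None of the 8 SMAD genes passed, which is near the shares of all genes that did, 5.74% higher and 3.89% lower. Their 3 mutant and 3 control values did not overlap for 3 of the 8, beside 28.1% of all genes. Differences of the SMADs lay between −0.12 and 0.34 with 95% confidence intervals from −0.48 to 0.60 at the widest. With array weights Smad5 and Smad7 passed as higher (limma adjusted p = 0.0352 and 0.0364). That fit called 2411 of all genes higher, against 1161 in the fit of the text. Smad7, an inhibitory SMAD that TGF-beta signalling itself induces, was 8.14, 7.88 and 7.83 across mutants, against 7.66, 7.51 and 7.65 across controls. Mutant 1 was the highest, and the groups did not overlap (log2 0.34, adjusted p = 0.106). Smad5, a SMAD of the BMP branch, was 10.31, 10.15 and 10.39 against 10.03, 9.96 and 10.10 (log2 0.26, adjusted p = 0.158). The common Smad4 was 11.27, 11.32 and 11.30 against 11.05, 11.10 and 11.24, a narrow gap without overlap (log2 0.17, adjusted p = 0.302). Smad1 (0.01, 95% confidence interval −0.19 to 0.21) and Smad9 (−0.04, −0.28 to 0.19), also of the BMP branch, had the differences nearest 0. Smad2 (−0.12, −0.48 to 0.24) and Smad3 (0.17, −0.21 to 0.55), of the TGF-beta and activin branch, and the inhibitory Smad6 (0.05, −0.20 to 0.31) overlapped between the groups. Phosphorylation of SMADs is not measured by transcript arrays.

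The ubiquitin ligases that target SMADs and receptors did not pass. Smurf1 was 9.99, 9.82 and 9.86 across mutants, against 10.18, 10.11 and 10.46 across controls, with every mutant below every control (log2 −0.36, 95% confidence interval −0.63 to −0.09, limma adjusted p = 0.111). It passed as lower with the adipocyte score as a covariate (0.0433). Smurf2 overlapped at 0.15 (adjusted p = 0.471).

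Of the 4 antagonists other than follistatin, 1 passed. Bambi, a decoy receptor without a kinase and itself a target of the pathway, rose from 8.49, 8.44 and 8.36 across controls to 8.87, 8.83 and 8.79 across mutants. Both groups were tight (log2 difference 0.40, SE 0.08, limma adjusted p = 0.0224). The call was lost without mutant 1 (0.122), mutant 3 (0.0859), control 2 (0.0679) or control 3 (0.0602), with sex as a covariate (0.0603) and without both muscle-rich samples (0.104). Noggin (Nog, 0.02, 95% confidence interval −0.21 to 0.24) and gremlin (Grem1, −0.07, −0.34 to 0.20) overlapped between the groups. Chordin (Chrd) stood at 0.20 (adjusted p = 0.235), with no overlap.

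Tgfbi, a matrix protein gene named for its induction by TGF-beta, rose. It stood at 13.60, 13.35 and 13.57 across mutants, against 12.43, 12.24 and 12.26 across controls. The lowest mutant lay well above the highest control, and the difference was 2.30-fold (log2 1.20, SE 0.10, limma adjusted p = 0.00118). Fibroblasts and macrophages are among the cells known to make it. The log2 sum of 8 macrophage markers was 12.14 to 12.52 in the mutants and 11.90 to 12.20 in the controls, and none of the 8 passed. The part of these cells in the rise of Tgfbi was not tested.

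**Figure D3:**
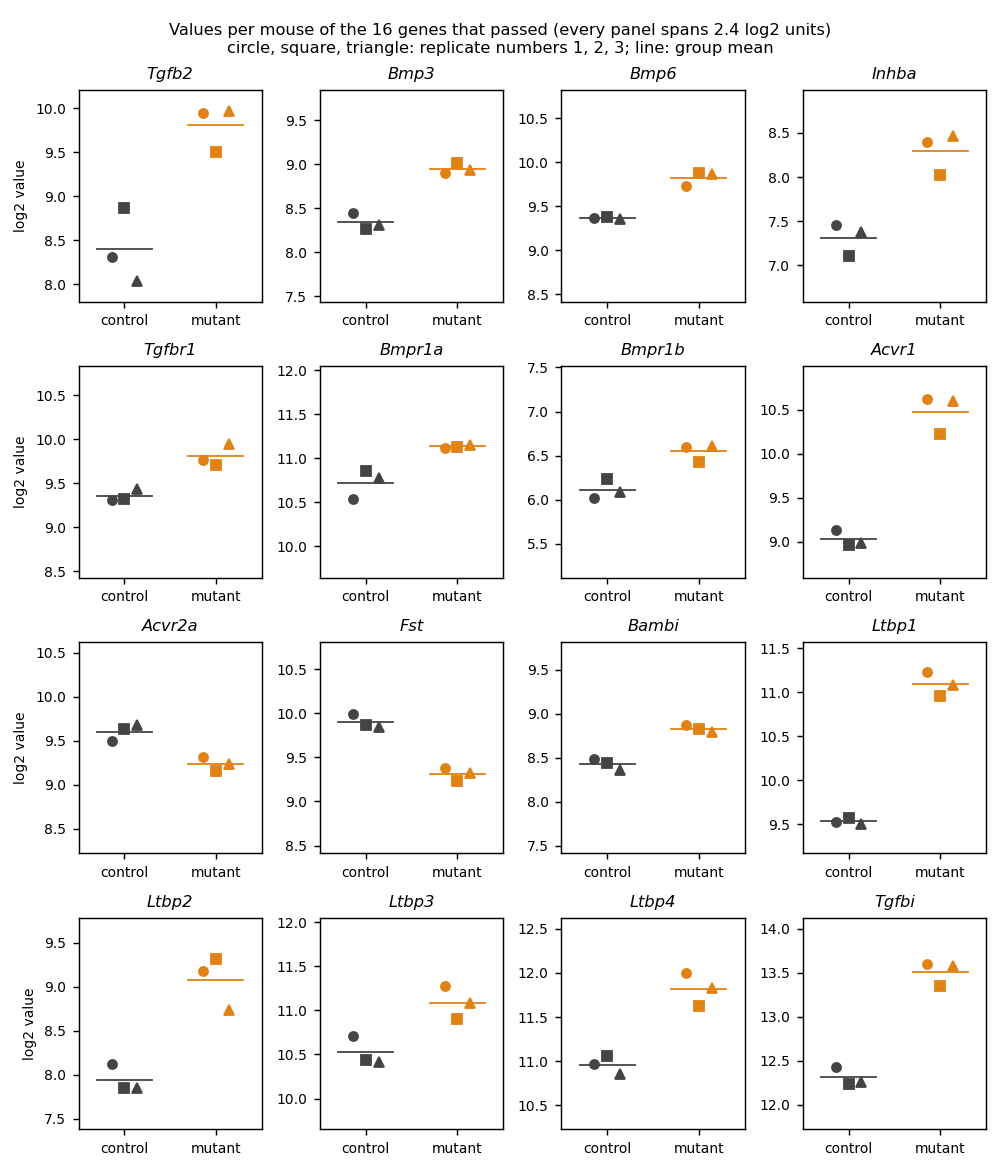
Log2 value of each mouse (vertical axis, 2.4 log2 units in every panel) for the 16 genes that passed, with controls in grey, mutants in orange, marker shapes for replicate numbers and lines for group means (n = 3 each). Mutants and controls do not overlap in any panel, and the group means lie farthest apart for Ltbp1, Acvr1, Tgfb2 and Tgfbi.

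Other genes of the pathway, 81 listed and 77 measured, gave 18 higher, 2 lower and 57 that did not pass, with a median difference of 0.14. Over all genes 5.74% were higher and 3.89% lower, with a median of −0.02. Of 17 measured target genes 5 rose and none fell (median 0.29). Ccn2, the connective tissue growth factor, was 12.10, 11.56 and 12.11 across mutants, against 10.39, 10.12 and 10.33 across controls, without overlap (log2 1.64, SE 0.17, limma adjusted p = 0.00199). Id2, an inhibitor of differentiation induced by BMPs, rose by 1.35 (adjusted p = 0.000834), and Skil, whose SnoN protein is a SMAD corepressor, by 1.18 (0.00235). Fibronectin (Fn1) rose by 0.65 (0.0192), but not past the test without mutant 1 (0.0902), mutant 3 (0.0906), control 2 (0.066), control 3 (0.0551) or both muscle-rich samples (0.0535). The fifth was Id4, at 0.64. Id1 (0.25, adjusted p = 0.517) and Id3 (0.28, 0.301), close readouts of BMP signalling, did not pass, nor did Pmepa1 (0.43, 0.155), a close readout of TGF-beta signalling. Ccn2, Id2 and Fn1 answer to other pathways too.

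Some genes for proteins that store or free latent TGF-beta were among the others that rose. Of the same kind, Itgav (−0.04, limma adjusted p = 0.935), Lrrc32 (0.24, 0.25) and Itgb6 (−0.53, 0.743) did not pass. Fbn2, a fibrillin of the microfibrils that LTBPs attach to, was 11.29, 10.29 and 11.31 across mutants, against 8.59, 8.61 and 8.69 across controls. Mutant 2 was the lowest mutant and still far above every control (log2 difference 2.33, SE 0.27, limma adjusted p = 0.00312). Thbs1, a thrombospondin that can activate latent TGF-beta, rose by 1.70 (adjusted p = 0.00574), and Itgb8, the integrin subunit that activates it, by 1.38 (0.00327). Bmp1, a protease that cleaves LTBP1 and chordin, rose by 0.73 (0.00303). Cd109, a co-receptor that restrains TGF-beta signalling, rose by 2.14 (0.000443). Together with these, the BMP-binding Bmper rose by 1.39 (0.00514), Gdf11 by 0.61 (0.00773), the follistatin relative Fstl1 by 0.64 (0.0189) and the BMP co-receptor Rgma by 0.50 (0.0195). Fstl1 was lost without mutant 1 (0.0926), mutant 3 (0.0921) or control 2 (0.0566), and Rgma without mutant 1 (0.0902), mutant 3 (0.0969), control 1 (0.0529) or control 3 (0.0556). Over the lists, 2 of 19 genes listed with other ligands (Gdf11 and the protease gene Bmp1), 3 of 10 other receptors and activating integrins, and 6 of 14 other extracellular regulators rose, and none fell. Among all genes tested 5.74% were higher and 3.89% lower.

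Of 17 other intracellular genes, 2 rose and 2 fell, beside 5.74% higher and 3.89% lower among all genes. Zeb1, the paralogue of the deleted gene, was 11.74, 11.47 and 11.76 across mutants, against 10.68, 10.54 and 10.75 across controls, with every mutant above every control (log2 1.00, SE 0.11, limma adjusted p = 0.0028). Tgif1, a SMAD corepressor, rose by 0.70 (adjusted p = 0.0399), a call lost without mutant 1 (0.139), mutant 3 (0.158), control 1 (0.102), control 2 (0.0991) or control 3 (0.0842) and with arrays centred on their medians (0.0581), sex (0.0783) or the adipocyte score (0.0641). Besides Zeb2, the ubiquitin ligase Wwp1 fell by 0.80 (adjusted p = 0.0346), a call lost without mutant 1 (0.138), mutant 3 (0.141), control 2 (0.103) or control 3 (0.0928).

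How far each call depended on a setting differed among the 16 genes that passed. Inhba, Acvr1, Ltbp1, Ltbp4 and Tgfbi passed under every alternative that tested them, 18 for each and 17 for Inhba, which a filter on low values left out. The highest limma adjusted p of these fits was 0.0483, for Inhba. The other 11 lost the call under at least 1 alternative. The direction of all 16 was the same throughout.

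**Figure D4:**
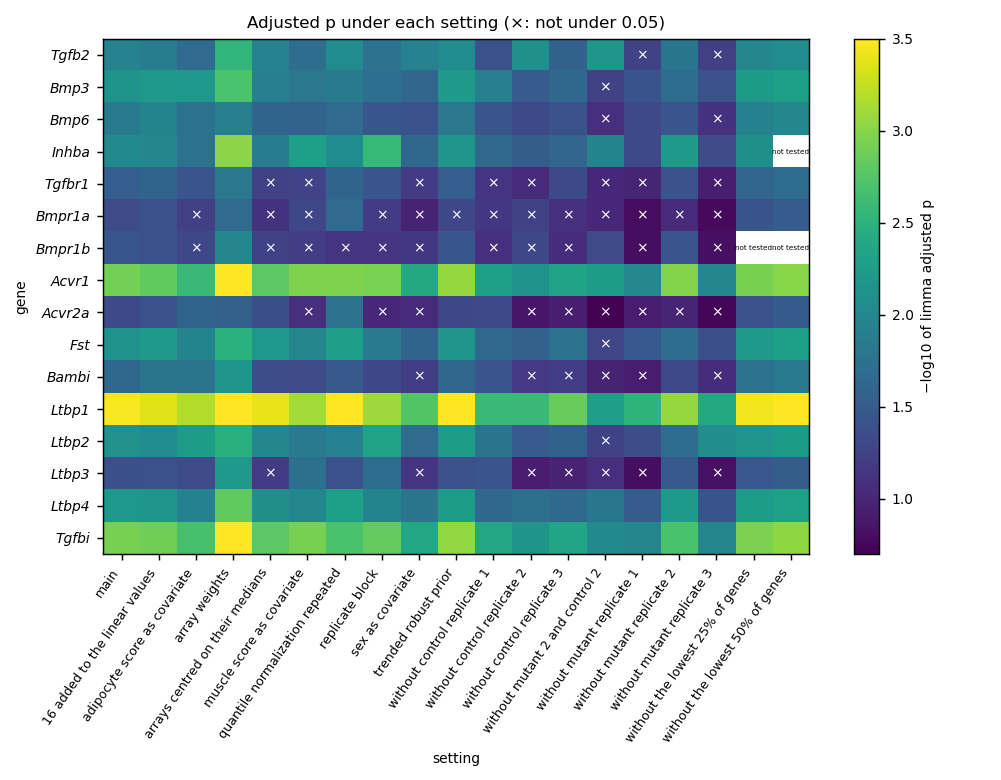
Limma adjusted p as −log10 (colour) of the 16 genes that passed (rows) under the setting of the text and 18 alternatives (columns), with a cross where it is not under 0.05. The rows of Inhba, Acvr1, Ltbp1, Ltbp4 and Tgfbi hold no cross, and those of Bmpr1a and Bmpr1b hold the most, 13 and 11.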

How the data were processed

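RNA from the sciatic nerves of 6 mice, 3 per group by the genotype in the labels, had been extracted with Trizol, amplified with an Ambion kit, labelled with biotin and put on whole-transcript Affymetrix arrays of 1 colour, per the labels' protocols. The authors deposited 1 table of log2 values, from 3.55 to 14.52, with array medians of 8.00 to 8.08. The log base was read from the values. Of tools, the submitters' processing notes list limma alone. How background was corrected, how values were normalized and on which build was not given in the sources used here. Arrays have no read depth, and their number limits the precision.

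Probe sets were named through the platform annotation, updated by Entrez number to RefSeq GRCm38.p6, which left 986 of 21225 without a name. Each symbol had 1 probe set. A linear model was fitted to the 20239 named genes (R 4.3.3, limma 3.58.1, functions lmFit and eBayes, without a trend or a filter, two-sided), mutant minus control, with Benjamini-Hochberg adjustment over all of them and a threshold of 0.05. SE is the moderated standard error, and values per group are mean ± SD. The script was tested on simulated data. The members, the gene lists and the alternatives were chosen with earlier results of these data known. Values per mouse are given for every member that passed and, in a role where none passed, for the member with the smallest p. Of the other pathway genes the 4 largest changes that passed in each list are named. Further values (Tgfb3, Bmp7, Mstn, Acvr2b, Id1, Id3, Id4, Pmepa1, Itgav, Lrrc32 and Itgb6) were chosen after they were seen, as were the 5 ratios between members. Some genes of the lists are not reported here.

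Both groups carry the replicate numbers 1 to 3 in the labels, with no statement of what a number shares. Deviations from the group means correlated between same-numbered samples at 0.36, 0.574 and 0.295 over all genes, which took the numbers as pairs for the fit with a replicate block. Mutant 1 and control 3 correlated at 0.303, and muscle transcripts follow the numbers.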

Additional observations from a re-analysis of the deposited data

How the results depend on the processing

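The 18 alternatives were other scalings, a constant added to the linear values, filters on low values, other variance priors, array weights, the replicate block, covariates, and samples left out. Array precision rests on 3 mice per group, and a low value may be background. Leaving out each sample in turn gave 7 to 14 members higher, 1 to 3 lower, and a median difference of 0.15 to 0.23. Under the replicate block 12 members were higher and 2 lower. Besides the calls of Bmpr1a, Bmpr1b, Acvr2a and Acvr2b, the block changed no call among the 45 genes. With sex as a covariate 9 were higher and 1 lower, without both muscle-rich samples 7 and 0, and with the adipocyte score as a covariate 4 were lower. Over all genes these fits called 902 higher and 674 lower, 871 and 453, and 1186 lower, against 1161 and 787 in the fit of the text. The cause of these changes was not tested, and fits that left out samples also had fewer of them. Centring arrays on their medians gave 10 higher and 2 lower. The filter on the lowest 50% of genes left out 12 members, Inhba and Bmpr1b among them. The median difference kept its direction and stayed within the spread between mutants in all 18. Members that passed kept their direction in every alternative. Signs turned for 8 members that had not passed. Over the fits that left out 1 sample, Mstn ran from −1.25 to 0.40, Gdf10 from −0.39 to 0.01, Smad1 from −0.03 to 0.05, Smad2 from −0.22 to 0.03, Smad6 from −0.04 to 0.11, Smad9 from −0.09 to 0.03, Nog from −0.04 to 0.09 and Grem1 from −0.15 to 0.01. Median centring gave −0.04 for Smad1 and −0.03 for Nog, repeated quantile normalization −0.04 and −0.00, and array weights −0.06 for Nog.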

Other observations

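Another 3 genes of the pathway varied between samples of the same group, alongside markers of muscle or fat, and they were picked after their values were seen. Hjv, the haemojuvelin co-receptor of BMPs that skeletal muscle expresses, stood at 7.06, 11.34 and 8.37 across mutants, against 7.50, 12.39 and 9.02 across controls, highest in sample 2 of each group. Itgb6, an integrin subunit that activates latent TGF-beta in epithelia, was 5.73, 7.37 and 5.89 across mutants, against 5.92, 8.54 and 6.11 across controls, again highest in sample 2. These are the samples with the highest muscle marker sums, 17.03 and 17.20 on the log2 scale. Acvr1c, an activin-type receptor known from fat cells, was 8.53, 8.77 and 8.18 across mutants, against 9.96, 8.96 and 7.79 across controls. Its highest and lowest values were those of control 1 and control 3, which also had the highest and lowest adipocyte marker sums, 16.22 and 14.71. None of these genes passed the limma test (adjusted p = 0.826 for Hjv, 0.743 for Itgb6 and 0.695 for Acvr1c).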
